A study of Arabidopsis with 12 samples.

Results

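The response of tori 35-7 Arabidopsis seedlings to water deficit was measured on 6 of the 12 arrays of the series, as the level on 3 water-deficit arrays minus the level on 3 control arrays. Growth before the transfer lasted 5 days, at 22 °C and a light intensity near 60 μmol m-2 s-1, and 72 h on the new medium brought all seedlings to an age of 8 days at sampling. Control medium held 0.8% agar and water-deficit medium held 2% agar, a stiffer gel from which roots take up water less easily. The remaining 6 arrays carried Col-0, the common laboratory accession, with 3 on each medium, and serve here as a reference for the size of a change. The labels describe tori 35-7 by its name alone, so its lesion, its parent line and the number of lines behind it are not known here. The series title points to TOR, the kinase that adjusts plant growth to the supply of nutrients and energy. RNA came from whole seedlings, so a change can reflect fewer cells of a type or less RNA per cell, and these cannot be told apart. The labels do not say whether replicates were separate cultures, so each p-value measures the spread between these arrays, which may be technical.

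Plants short of water accumulate the hormone abscisic acid, which closes stomata and switches on genes of protective proteins such as dehydrins and the cold-regulated COR proteins. Growth under such conditions depends on the cell wall, which expansins loosen and which pectin methylesterases, peroxidases and cellulose synthases modify. TOR promotes growth and protein synthesis and restrains autophagy, the recycling of cell contents, and it acts in opposition to abscisic acid signalling.

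Levels are log2 probe set values as deposited, and a change is the mean of the 3 water-deficit arrays minus the mean of the 3 control arrays, with the standard error (SE) of a limma model fitted to all 12 arrays. A gene passed the test when its limma p-value, adjusted by Benjamini-Hochberg over 16550 genes, was under 0.05. Over all genes the median change was 0.0075 with a standard deviation of 0.24, and the central 98% of genes lay between -0.58 and 0.72. On this scale most of the transcriptome moved little. The response consisted of 192 genes (1.16%), of which 136 were higher under water deficit (0.822%) and 56 were lower (0.338%). An unadjusted p-value under 0.05 was found for 1581 genes, the 192 included. In all 192 genes the 3 deficit and 3 control arrays did not overlap, which held for 3129 of all genes (18.9%).

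Most changes were modest in size. Changes of at least 4-fold were found in 3 genes that rose and 2 that fell, and changes of 2- to 4-fold in 44 and 14. The largest class, between 1.5- and 2-fold, held 87 rises and 36 falls, and 2 rises and 4 falls were under 1.5-fold. The smallest change that passed was 0.56 on the log2 scale. Of the 75 genes that differed at least 2-fold, 63 passed the test. When genes were divided into 4 equal classes by mean level, the dimmest class gave 0 calls and the next gave 11 rises and 6 falls. The third class gave 62 rises and 28 falls and the brightest 63 and 22.

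**Figure D1:**
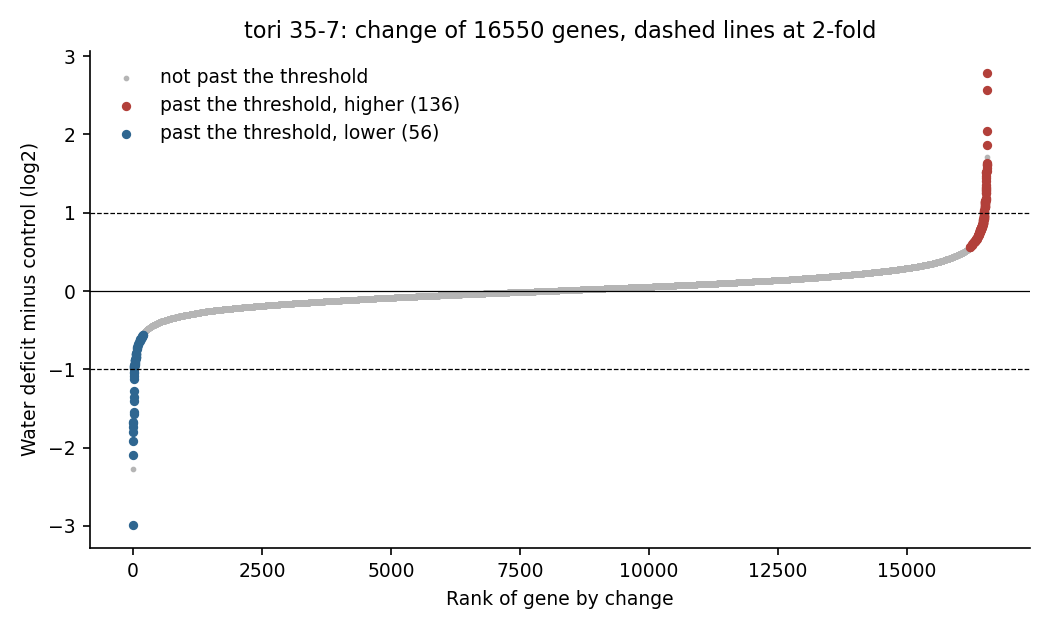
Change of each of the 16550 genes in tori 35-7 (vertical axis, water deficit minus control in log2) against its rank (horizontal axis). Red and blue points are the 136 rises and 56 falls that passed the test, grey points did not pass, and dashed lines mark 2-fold.

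The extremes of the range set its scale. COR15A, a chloroplast protein that protects membranes in the cold, read 5.54, 4.45 and 4.89 on the control arrays and 7.52, 8.07 and 7.63 on the deficit arrays. AT2G14247, a locus of the iron-deficiency list below, read 3.57, 4.30 and 4.48 on control and 6.71, 6.87 and 6.48 under deficit. At the other end, AT5G42530 read 7.10, 6.55 and 6.78 on control medium and 4.62, 3.54 and 3.29 under deficit. Its deficit replicate 1 lay above the other 2 deficit arrays by more than the whole spread of the control arrays, and still below every control array. AT1G65490 read 4.93, 4.64 and 4.55 on control and 2.48, 2.59 and 2.77 under deficit.

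The spread of levels was narrower on 2 arrays than on their replicates. Col-0 water deficit replicate 1, which enters these results through the shared spread, had an interquartile range of 2.56 over all probe sets, and without it 387 genes passed in tori 35-7 in place of 192 (276 higher, 111 lower). The levels on tori 35-7 control replicate 1 were compressed too, with an interquartile range of 2.68 against 2.91 to 2.99 on the other 5 tori 35-7 arrays. Among the 136 genes that rose, it was the lowest of the 3 control arrays in 72 and the highest in 32. The genes that fell leaned the same way, with this array lowest in 29 and highest in 14. Its level minus the mean of control replicates 2 and 3 had a median of -0.0247 over all genes. That median was -0.0952 in the rises and -0.0842 in the falls, so a low reading was not particular to the rises. Without control replicate 1, 98 genes passed the test (0.592%), 61 higher (0.369%) and 37 lower (0.224%). Of the 192 genes, 86 passed in both fits (57 rises and 29 falls), 106 were lost and 12 others were gained. All 192 kept their sign, which was fixed in advance because their groups did not overlap. Their adjusted p-values stayed at or below 0.181. The median rise went from 0.87 to 0.82 and the median fall from -0.89 to -0.92. The count also fell without each of the others: leaving out control replicate 2 gave 100 genes and replicate 3 gave 80, and leaving out deficit replicates 1, 2 and 3 gave 94, 71 and 70. In total, 55 genes passed on all 12 arrays and without each of the 6 in turn, 38 of them higher and 17 lower.

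The loss was concentrated among the smaller changes. All 5 changes of at least 4-fold passed without control replicate 1, as did 33 of the 44 rises and 11 of the 14 falls between 2- and 4-fold. Between 1.5- and 2-fold, 21 of 87 rises and 15 of 36 falls passed. By rank, 9 of the 10 largest rises and 9 of the 10 largest falls passed, then 16 of 20 rises and 13 of 20 falls at ranks 11 to 30. Beyond rank 30 the shares fell to 32 of 106 rises and 7 of 26 falls.

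**Figure D2:**
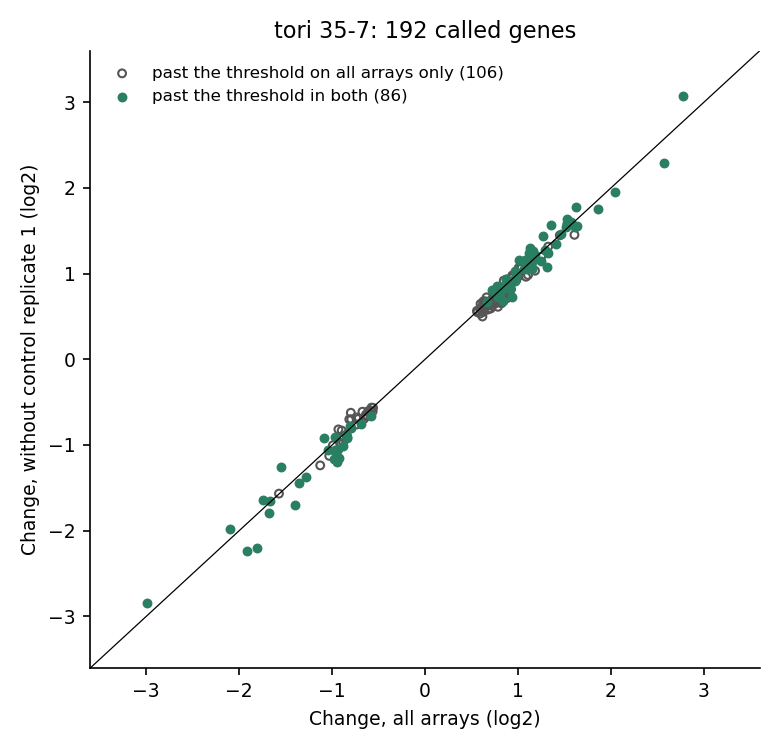
Change of the 192 genes with all arrays (horizontal axis, log2) against the change without tori 35-7 control replicate 1 (vertical axis, log2), with the line of equality. Filled points are the 86 genes that passed in both fits and open points the 106 that passed with all arrays only. Every point keeps its sign, as it must where the groups do not overlap.

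What the genes do could be read for some of them only. A name other than the locus was given for 44 of the 192 genes (22.9%) against 11.7% of all genes, 32 among the rises and 12 among the falls. The other 148 are counted, and only some of them, at the extremes of the range or in a list below, are described. Of the 44 named genes, 22 passed without control replicate 1. At ranks 11 to 30, 7 of 20 rises and 6 of 20 falls had a name, and they are described next.

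Among the rises at ranks 11 to 30 were an expansin, an antenna protein, an auxin response repressor and 2 glycosyltransferases. EXPA8, an expansin that loosens cell walls, read 5.62, 5.00 and 5.56 on control and 6.64, 7.01 and 7.10 under deficit, a rise of 1.52 ± 0.21 (SE, adjusted p = 0.00244). LHB1B2, which encodes the chlorophyll-binding antenna protein LHCB1.5 of photosystem II, read 7.73, 7.63 and 7.42 against 9.06, 9.23 and 9.06, a rise of 1.52 ± 0.25 (adjusted p = 0.00652). IAA29, a repressor of auxin-responsive transcription, read 3.04, 3.24 and 2.83 against 3.95, 4.75 and 4.80, a rise of 1.46 ± 0.20 (adjusted p = 0.00244). As in every gene past the test, deficit and control arrays did not overlap in these 3 genes. All 3 also passed without control replicate 1.

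SIS, named in the reference table as Salt Induced Serine rich, was the tightest of the group on control medium, at 5.18, 5.14 and 5.24, and read 6.46, 6.76 and 6.67 under deficit. Its rise of 1.45 ± 0.28 passed with all arrays (adjusted p = 0.0181) but not without control replicate 1 (adjusted p = 0.0633), although the change itself was 1.45 in both fits. UGT73B4 and UGT73C6, glycosyltransferases that attach sugars to small molecules, rose by 1.41 ± 0.16 and 1.14 ± 0.19 (adjusted p = 0.000534 and 0.00824). The rise of UGT73C6 was 0.61 with a gene's probe sets averaged (adjusted p = 0.0532), and it did not pass without control replicate 3 or deficit replicates 1 or 2 (adjusted p from 0.0512 to 0.0535). AILP1 rose by 1.18 ± 0.14 (adjusted p = 0.000573) from a high control level of 7.69 ± 0.12 (SD, n = 3).

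The named falls at ranks 11 to 30 were EXO, PMEPCRF, ATPMEPCRB, CSLB03, PRXCA and SAPX. EXO (EXORDIUM), an extracellular protein that promotes cell expansion, read 5.40, 5.68 and 5.62 on control and 4.36, 4.45 and 3.82 under deficit, a fall of 1.36 ± 0.18 on the log2 scale (change -1.36, adjusted p = 0.00209). PMEPCRF, a pectin methylesterase gene, read 6.18, 6.51 and 6.42 against 5.03, 5.19 and 5.06, a change of -1.28 ± 0.17 (adjusted p = 0.00166). ATPMEPCRB, the pectin methylesterase also called PME41, read 6.04, 5.68 and 5.42 against 4.56, 4.66 and 4.65, a change of -1.09 ± 0.17 (adjusted p = 0.00521). These 3 falls passed without control replicate 1.

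CSLB03, a member of the cellulose synthase-like family, read 3.85, 3.85 and 4.43 on control and 3.05, 3.02 and 2.96 under deficit, a change of -1.03 ± 0.21 (adjusted p = 0.0300). PRXCA, the wall peroxidase PRX33, read 2.97, 2.88 and 3.16 against 1.82, 2.296 and 2.25, a change of -0.89 ± 0.17 (adjusted p = 0.0215). Both lost their calls without control replicate 1, with adjusted p-values of 0.0538 and 0.0599. SAPX, the ascorbate peroxidase that removes hydrogen peroxide in the chloroplast stroma, read 6.90, 7.16 and 7.28 against 6.37, 6.02 and 6.12. Its change of -0.94 ± 0.15 (adjusted p = 0.00521) passed in both fits.

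**Figure D3:**
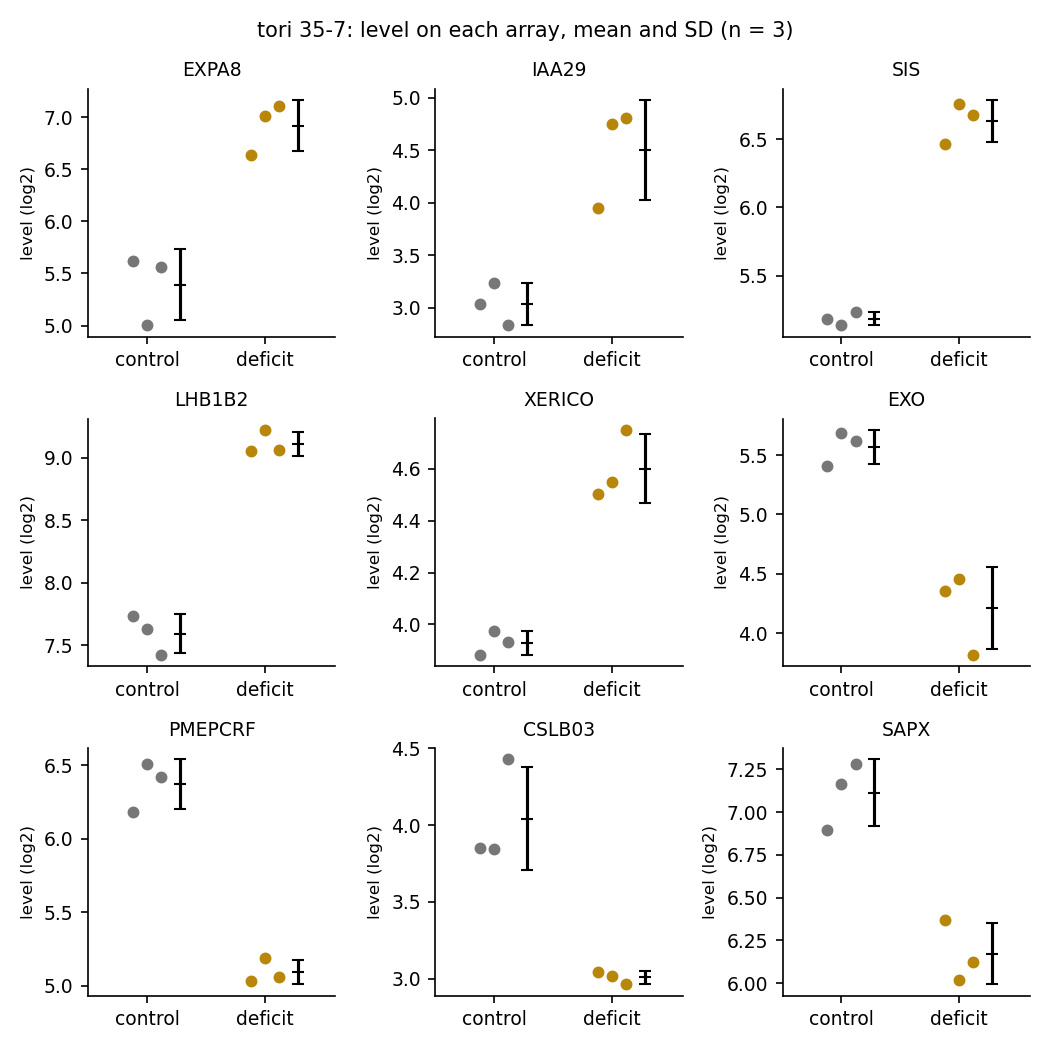
Level of 9 named genes (vertical axis, log2) on each tori 35-7 array (points, replicates 1 to 3 from left to right) with the mean and SD of each group (n = 3). As in every gene past the test, the arrays of the groups do not overlap. Deficit arrays lie above control arrays in EXPA8, IAA29, SIS, LHB1B2 and XERICO, and below them in EXO, PMEPCRF, CSLB03 and SAPX.

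Beyond rank 30 the named genes covered hormone, protease, nitrogen and redox functions. They numbered 21 among the 106 rises and 5 among the 26 falls. XERICO, a RING-type protein that raises abscisic acid levels, read 3.88, 3.98 and 3.93 on control and 4.50, 4.55 and 4.75 under deficit, a rise of 0.67 ± 0.12 (adjusted p = 0.0161). BAT1, an acyltransferase related to brassinosteroid metabolism, rose by 0.80 ± 0.17 (adjusted p = 0.0324). Neither passed without control replicate 1 (adjusted p = 0.0583 and 0.123).

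Protein-cleaving enzymes of the cell surface were represented by 2 rises, the subtilase gene SBT3.5 with 1.11 ± 0.20 (adjusted p = 0.0152) and the matrix metalloproteinase gene MMP with 0.82 ± 0.17 (adjusted p = 0.0357). ALN, the allantoinase that breaks down ureides and so releases nitrogen from purines, rose by 0.91 ± 0.17 (adjusted p = 0.0165). OSM34, an osmotin-like protein, rose by 0.75 ± 0.17 (adjusted p = 0.0448), TET5, a membrane-spanning tetraspanin, by 0.83 ± 0.17 (adjusted p = 0.0302), and SUFE2, named sulfur E2, by 0.62 ± 0.12 (adjusted p = 0.0256). These 6 genes did not pass without control replicate 1.

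Transcription factors beyond rank 30 included TCP15, a growth regulator of the TCP family, with a rise of 0.72 ± 0.16 (adjusted p = 0.0411), and AT1G30260, annotated as the MADS-box factor AGL79, with 0.87 ± 0.16 (adjusted p = 0.0154). FMA, a regulator of guard cell differentiation also called FAMA, rose by 0.85 ± 0.18 (adjusted p = 0.0353). Of these 3, AT1G30260 passed without control replicate 1 (adjusted p = 0.0333). THI2.2, a thionin of the antimicrobial peptide class, rose by 1.13 ± 0.20 (adjusted p = 0.0142) and also passed (adjusted p = 0.0484).

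The 5 named falls beyond rank 30 were enzymes or chloroplast factors. FDH, the formate dehydrogenase of mitochondria, read 8.03, 8.25 and 8.28 on control and 7.37, 7.40 and 7.26 under deficit, a change of -0.84 ± 0.13 (adjusted p = 0.00484, and 0.00728 without control replicate 1). SEH, an epoxide hydrolase, changed by -0.88 ± 0.19 (adjusted p = 0.0345) and VTC4, a phosphatase on the path to ascorbate, by -0.63 ± 0.13 (adjusted p = 0.0251). AT5G55580, annotated as mTERF9, a factor for chloroplast gene expression, changed by -0.64 ± 0.12 (adjusted p = 0.0165) and AT5G64120, annotated as the peroxidase PRX71, by -0.58 ± 0.12 (adjusted p = 0.0351). Of the 5, FDH passed without control replicate 1.

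Lists of genes by function were then read against the 1.16% of all genes that passed and their median change of 0.0075, as counts with no test of a list. Of 81 lists, 58 had at least 3 measured members, 11 had 1 or 2, and 12 had none. Together they held 970 genes, 38 of them past the test, and 21 lists had at least 1 such member. Several lists were revised or added after the genes past the test had been seen. Where this moved the number past the test in a list below, the first version is given or the list is called added. The number measured also changed in other lists, such as auxin response (8 as first written, 17 used) and UDP-glycosyltransferases (48 and 55). The lists of TBL proteins and NRT1/PTR transporters were added later.

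Rises were found among protective proteins and iron-deficiency genes. Of 14 dehydration and cold protectants, 4 rose and 10 did not pass, with a median of 0.16. The 4 were COR15A, SIS, COR15B (1.07 ± 0.17, adjusted p = 0.00521) and KIN2 (1.01 ± 0.17, adjusted p = 0.00864). SIS was added to the list later, and the list as first written had 3 rises among 12. Without control replicate 1 the count was 3. Of the members that did not pass, COR27 was at 0.45 (adjusted p = 0.17), LTI30 at 0.42 (adjusted p = 0.228) and COR47 at 0.08. KIN1, a close relative of KIN2, was at -0.12. Its control level of 2.11 was below the median control level of all genes (2.98), so its lack of change says little. The probe sets of such close relatives are not certain to tell them apart.

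Of 13 loci known to respond to iron deficiency, 5 rose, none fell and the median change was 0.64. Without control replicate 1 the number was 4, because AT1G47400, with a change of 0.84 ± 0.17 (adjusted p = 0.0296), went to an adjusted p of 0.0922. The list also held AT1G13609, whose change of 1.71 did not pass (adjusted p = 0.132), and the regulator PYE, at 0.41 (adjusted p = 0.473). BHLH101, a transcription factor of iron-starved plants, read 2.85, 3.06 and 3.20 on control and 4.92, 5.12 and 5.18 under deficit.

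The low-oxygen list moved the other way in part. Of its 20 measured loci, 4 fell, none rose and the median was -0.11. HRA1 (AT3G10040), an attenuator of the low-oxygen response, read 4.59, 5.53 and 5.56 on control and 3.31, 3.099 and 3.53 under deficit, so control replicate 1 was the lowest control and the change of -1.91 became -2.23 without it. AT3G27220 read 5.26, 6.33 and 6.56 against 4.26, 4.47 and 3.99, and its change went from -1.81 to -2.20. AT3G23170 (-0.99 ± 0.20, adjusted p = 0.0309) and AT4G24110 (-0.80 ± 0.13, adjusted p = 0.0069) also fell. Without control replicate 1 the count was 3, as AT3G23170 had an adjusted p of 0.0853. The fermentation enzyme gene PDC2 was at -0.12 and the calmodulin-like CML38 at -0.30, neither past the test.

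Wall-related lists split in direction. Of 24 expansins, 3 rose (EXPA8, EXPA16 and EXPA4, by 1.52, 0.78 and 0.64) and none fell, with a median of 0.0077. EXPA16 and EXPA4 did not pass without control replicate 1, which left 1. Of 5 pectin-modifying enzymes, 2 fell, with and without that array (the list as first written had 2 of 4). None of 10 xyloglucan endotransglucosylases passed, with a median of -0.15, the lowest p being that of XTH33 at -0.55 ± 0.15 (adjusted p = 0.118). None of 25 TBL wall acetylation proteins passed (median 0.0014). Of 8 class III peroxidases, 2 fell with all arrays and 0 passed without control replicate 1 (median -0.18).

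Detoxification and redox lists showed few calls. Of 55 UDP-glycosyltransferases, UGT85A5, UGT73B4 and UGT73C6 rose and the median was 0.05, with the same number without control replicate 1. Of 14 glutathione transferases, GSTU25 rose and the median was -0.06. None of 26 cytochromes P450 passed (median 0.03) and none of 8 thioredoxins and peroxiredoxins did (median 0.05). Among 23 glutaredoxins, AT4G15680 fell by 0.92 ± 0.21 on the log2 scale (change -0.92, adjusted p = 0.0465) and the median was -0.11. Without control replicate 1 the glutaredoxin count was 2, because AT4G15660, with a change of -1.09 on all arrays (adjusted p = 0.0859), then had an adjusted p of 0.00987. Most of these loci were added later, and the list as first written had 0 of 3. The list of ascorbate metabolism, added later, held 3 genes, of which SAPX and VTC4 fell.

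Photosynthesis genes of the nucleus and genes of the plastid were read as separate lists. Of 8 nuclear-encoded photosystem and antenna genes, 2 rose (LHB1B2 and LHCB4.2) and the median was 0.37. This list was added later, and a dropped list of photosystem and light harvesting genes had 2 of 6. LHCB4.2, a minor antenna protein, read 5.23, 5.02 and 4.94 on control and 6.19, 6.23 and 6.01 under deficit, a rise of 1.08 ± 0.15 (adjusted p = 0.00271). LHCB4.1 and the photosystem I subunit PSAE-1 were at 0.52 each and did not pass (adjusted p = 0.104 and 0.187). None of 63 plastid-encoded genes, a list added later, passed, and their median was 0.05. For a list of that size a count of 0 is near the 1.16% of all genes that passed. None of 3 Calvin cycle genes passed either, with a median of -0.42 and 1 of them above 0. Of 7 listed leaf markers 3 were measured, and these are the antenna genes LHB1B2, LHCB4.1 and LHCB4.2 again. Of these 3 leaf markers 2 rose. The log2 of the summed level of the 3 was 8.49 to 8.68 on control and 9.69 to 9.85 under deficit. These sums describe antenna genes and not leaf tissue as a whole. Among 3 measured guard cell markers FMA rose, with sums of 5.59 to 6.52 and 6.44 to 6.80 that overlap. None of 2 root hair markers, 1 cortex marker or 1 meristem marker passed, and no marker of root cap, epidermis, vascular tissue or seed was measured. The part of a changed balance of tissues in these results was not tested.

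No measured member of the TOR signalling and autophagy lists passed the test. The TOR kinase itself was not among the measured members, so the pathway was covered in part only. Of 6 measured members of the TOR list, RAPTOR2 was at 0.26, RAPTOR1 at 0.14 and AT1G22730 at -0.32, with adjusted p-values of 0.787, 0.924 and 0.752. The 11 autophagy genes lay between 0.07 and 0.41 with a median of 0.29, and 10 of 11 were above 0 without control replicate 1, with ATG8G at -0.04 and a median of 0.27. Without control replicate 3 it was again 10 of 11, with APG8H (AT3G15580) at -0.02. With all arrays the lowest adjusted p was 0.23 for ATG8E, at 0.38 ± 0.12. ATG8H (AT3G06420) was at 0.41 and ATG3 at 0.30. These changes were not separable from the spread between arrays gene by gene.

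Transcription factor, transport and protein turnover lists were mostly without calls. None of the 25 bZIP factors in the list passed (median 0.12, with BZIP34 at 0.73 ± 0.23, adjusted p = 0.227). Members of the family outside the list are not covered by this count. None of 7 WRKY factors passed (median 0.20), and 1 of 9 bHLH factors did, BHLH101. Among 17 auxin response genes IAA29 alone passed, and none of 8 cytokinin genes did (RR16 at -0.39, adjusted p = 0.459). None of 12 RING and U-box ligases passed, the nearest being PUB26 at 0.67 ± 0.17 (adjusted p = 0.0817). GI (GIGANTEA), a clock protein, was at 0.63 ± 0.15 and did not pass (adjusted p = 0.0571). Among 14 nitrate and NRT1/PTR transporters none passed, with AT1G68570 lowest at -0.71 ± 0.17 (adjusted p = 0.0595), and none of 22 ion channels and transporters or 19 sugar transporters passed.

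**Figure D4:**
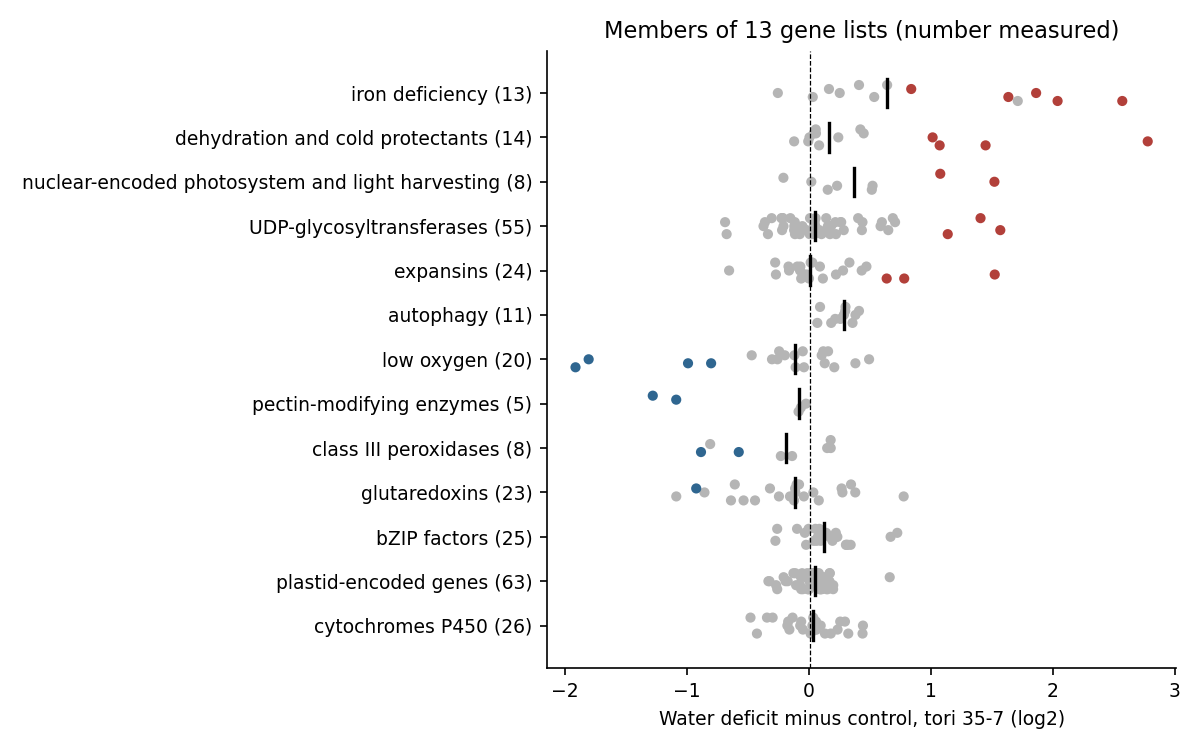
Change of each measured member of 13 lists in tori 35-7 (horizontal axis, log2, number measured in brackets), with a bar at the list's median and a dashed line at the median of all genes. Red and blue members passed the test and grey ones did not: the iron-deficiency list has 5 red members, the low-oxygen list has 4 blue ones, and the autophagy list has no member past the test.

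Set beside Col-0, most of the response had the same direction. In Col-0, 203 genes passed (1.23%), and 74 genes passed in both genotypes in the same direction, 49 rises and 25 falls, which is 38.5% of the genes in tori 35-7 and 36.5% of those in Col-0. Of the 192 genes, 181 had the same sign in Col-0. The Col-0 median was 0.59 for the genes that rose in tori 35-7 and -0.63 for those that fell. The genes were chosen by their values in tori 35-7, so these medians are a description and no comparison of strength. The difference between the responses of the genotypes (the interaction) was tested for all genes and passed for 1 gene (0.00604%), HRA1 (AT3G10040), a call that did not hold under several other settings.

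HRA1 changed by -1.91 ± 0.22 in tori 35-7 and by 0.45 ± 0.22 in Col-0, an interaction of -2.36 ± 0.32 (adjusted p = 0.0436). After median centring of the arrays it was -2.304 and no longer passed (adjusted p = 0.121). It did not pass either when Col-0 array 1 under deficit was left out (-2.38, adjusted p = 0.0822). Without tori 35-7 control replicate 1 it passed, at -2.68 (adjusted p = 0.000333), and without each of the other 5 tori 35-7 arrays it did not (adjusted p from 0.101 to 0.262). The call held with quantile normalization, a filter on dim genes and other priors (adjusted p from 0.0156 to 0.0353). It held too with array weights, averaged probe sets and a block for replicate number (adjusted p from 0.000634 to 0.0437). The interaction lay between -2.68 and -2.19 in every setting. Other genes with unequal values did not pass that test. IAA29 rose by 1.46 in tori 35-7 and stood at 0.06 ± 0.20 in Col-0 (interaction 1.41 ± 0.29, adjusted p = 0.326). EXO changed by -1.36 and by -0.09 ± 0.18 (interaction -1.26 ± 0.26, adjusted p = 0.326). BHLH101 rose by 2.04 in tori 35-7 and by 3.05 ± 0.17 in Col-0 (interaction -1.01 ± 0.24, adjusted p = 0.707). By contrast, PMEPCRF was at -1.28 and -1.31 and LHB1B2 at 1.52 and 1.46 in tori 35-7 and Col-0, with interactions of 0.03 ± 0.24 and 0.06 ± 0.35.

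**Figure D5:**
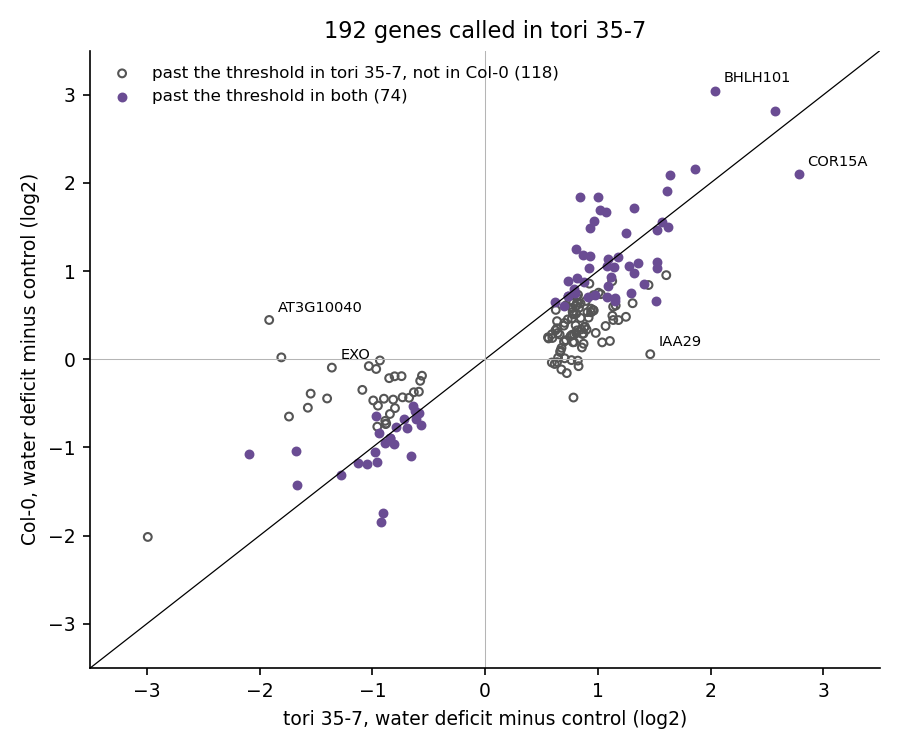
Change of the 192 genes in tori 35-7 (horizontal axis, log2) against their change in Col-0 (vertical axis, log2), with the line of equality. Filled points are the 74 genes that passed in both genotypes, and HRA1 (AT3G10040), at -1.91 and 0.45, is the gene whose interaction passed with all arrays.

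Probe sets that the annotation ties to several genes or to none numbered 21686, and 96 of them passed the test when fitted on their own (0.443%), 62 higher and 34 lower. They are not described, because no single gene can be named for them.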

How the data were processed

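Values of 38408 probe sets on 12 arrays were deposited. They were taken as log2 levels from their range, because the deposited table names no scale. Per the submitters' processing notes, the software was Transcriptome Analysis Console 4.0.1. How it corrected background, normalized and summarized is not given in the sources used here, and the effect of these steps on small changes is unknown.

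The annotation lists 16722 probe sets with 1 gene, 759 with several and none for 20927. Genes took their brightest probe set (146 genes had more than 1), which gave 16550 genes, 16411 of them matched to the RefSeq table of TAIR10.1. All 12 columns were mapped to samples and no arrays were identical. limma 3.58.1 in R 4.3.3 (lmFit, eBayes) fitted the mean of each of the 4 groups over the 12 arrays, and its two-sided test was used with Benjamini-Hochberg adjustment and a threshold of 0.05. The steps were tested on simulated data.

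The genes and lists were chosen with earlier results of these data known. Of 81 lists, 41 are as first written, 22 were revised and 18 added after the genes past the test had been seen, and 7 were dropped. The lists as first written hold 29 of the 192 genes and the lists used hold 38. Nothing is supported by a list's count. Lists were matched by locus or by words in the gene names of the tables.

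Named genes are those past the test whose arrays do not overlap, with the largest 10 in each direction, ranks 11 to 30, and up to 4 further members of each list (or the member with the smallest p). BAT1, MMP, ALN, SUFE2, TCP15, FDH, SEH and the members that did not pass were in part chosen outside that rule, after their values were seen. Motifs in promoters were planned and not run, because no promoter sequence was at hand, and no sequence is printed. Alternatives were other scalings, filters, priors, weights and samples, and each tori 35-7 array left out in turn.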

Additional observations from a re-analysis of the deposited data

Results flagged for a closer look

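HRA1 (AT3G10040) stood out because its response differed between the genotypes by the test of the interaction, with a difference of -2.36 on the log2 scale (tori 35-7 minus Col-0, adjusted p = 0.0436). The call was lost with each array centred (adjusted p = 0.121), without Col-0 water deficit replicate 1 (adjusted p = 0.0822) and without each of 5 of the 6 tori 35-7 arrays. It held without tori 35-7 control replicate 1, with quantile normalization, with a filter on dim genes and with other priors. The same was true with array weights, averaged probe sets and a block for replicate number. SBE2.2, a starch branching enzyme, was flagged because every deficit array lay above every control array in tori 35-7 (8.47, 8.37 and 8.39 against 8.06, 8.28 and 8.34) and below in Col-0. That check covered only the genes selected for naming, and the share of all genes with this pattern was not counted. The Col-0 side includes the compressed water deficit replicate 1. For SBE2.2 the difference of responses was 0.59 ± 0.24, which did not pass the interaction test (adjusted p = 0.807). Neither response passed alone (adjusted p = 0.861 in tori 35-7). In addition, 96 probe sets without a single annotated gene passed the test in tori 35-7 and lie outside the comparisons above.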

How the results depend on the processing

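The 192 calls in tori 35-7 (136 higher, 56 lower) numbered 668 (407, 261) with array weights, 387 (276, 111) without Col-0 water deficit replicate 1 in the shared spread, and 63 (47, 16) with a 2-fold minimum. On the 6 tori 35-7 arrays alone 1.72% of genes passed, against 1.16% in the main fit, and the falls numbered 90. Leaving out each tori 35-7 array gave 70 to 100 calls, 47 to 75 higher and 21 to 37 lower. Quantile normalization, centring, a filter on dim genes, other priors and averaged probe sets gave 156 to 227 calls. Under those settings other than the filter, with array weights, the 6 arrays alone, the 11 arrays and the replicate block, 139 of the 192 genes passed each time. Across all genes, same-numbered tori 35-7 arrays did not deviate together (correlations -0.06 to 0.03, against -0.05 to 0.08 for different numbers). A pairing that touched few genes would not show in this, so pairing by number is not excluded. The fit with the replicate block gave 211 calls. The interaction gave 2 calls with array weights, 0 with centring, 0 without Col-0 water deficit replicate 1, and 0 to 2 with each tori 35-7 array left out. None of the 83 genes past the test that were followed by symbol or locus changed sign. For the fits without 1 tori 35-7 array this was fixed in advance, because the groups did not overlap. Of the 1245 values of these 83 genes under the alternatives, 1016 stayed past the test and 229 did not. Signs of genes that did not pass were not followed, other than those of autophagy genes. Of these, 10 or 11 of 11 were above 0, against 51.6% of all genes in the main fit. The causes were not tested. The number of arrays, 3 per group, limits the precision.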
